A study of Mus musculus with 8 samples.

Results

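The comparison set liver RNA from 2 mice that carried a human LXRα transgene against liver RNA from 2 mice that carried GFP, all given vehicle. It used 4 of the 8 arrays of the study, chosen by their labels (transgene, and vehicle as treatment). All the mice lacked the LDL receptor on a C57B6 background and were 8 months old. At 10 weeks of age each had received adeno-associated virus 2.8, whose transgene stood under a liver-specific promoter, that of human thyroxine binding globulin. All ate a Western diet for 12 weeks and were injected intraperitoneally for the last 3 days. The controls thus shared the virus, the receptor deletion, the diet and the injections, and differed in the transgene. The other 4 arrays carried the same transgenes in mice given T0901317, a synthetic LXR agonist, at 5 mg/kg, and are used below only for values set beside the vehicle result. Each array held 1 mouse, and sex was not stated in the labels. Eif2s3y, a Y-linked gene, had an intensity of 130 and 165 in the GFP vehicle livers and 151 and 85.1 in the LXRα vehicle livers, and the 3 Xist probe sets lay at 10.01 or lower on all 8 arrays.

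LXRα, encoded by Nr1h3, is a nuclear receptor that binds oxysterols and pairs with the retinoid X receptor on DNA. In liver it raises transcription of sterol transporters, of Cyp7a1 in rodents, and of Srebf1, which drives fatty acid synthesis. In macrophages it also restrains inflammatory genes. The comparison asks what additional receptor does in liver when no synthetic agonist is given. The array's mouse Nr1h3 probe set gave an intensity of 128 and 170 with GFP and 183 and 218 with LXRα. Both LXRα values lay above both GFP values, by 0.44 on the log2 scale (SE 0.45, adjusted p = 0.963). How this probe set responds to the human transcript was not tested, so it does not check the labels.

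Signs of RNA degradation were low on the 4 vehicle arrays, and a little higher with LXRα. The β-actin 3'/5' ratio, which grows as RNA degrades, was 2.21 and 2.08 with GFP and 2.61 and 3.08 with LXRα. The ratio for pyruvate carboxylase was 4.75 and 6.78 with GFP and 8.34 and 11.2 with LXRα, so neither ratio overlapped between the groups, and their part in the results was not tested. On the T0901317 arrays the β-actin ratio was 7.56 and 11.04 with GFP and 2.75 and 36.3 with LXRα. The control dap is a bacterial transcript that liver does not make. Its ratio was 1.89 and 2.20 in GFP vehicle and 1.99 and 1.67 in LXRα vehicle. With T0901317 it was 4.60 and 9.97 for GFP and 2.86 and 21.8 for LXRα, so higher ratios there were not limited to liver transcripts. Log2 intensities of the replicates correlated across probe sets with r = 0.966 (GFP vehicle) and 0.977 (LXRα vehicle). The liver label held on all 4 arrays: Alb, the serum albumin gene, had intensities of 31022 and 26944 with GFP and 27687 and 26426 with LXRα. A single array stood apart. GFP vehicle replicate 2 carried high values of digestive enzyme genes that the exocrine pancreas makes. Cela2a, a pancreatic elastase gene, read 14.0 in GFP vehicle replicate 1, 11030 in replicate 2, and 16.1 and 16.4 in the LXRα vehicle livers. Ctrb1, which encodes chymotrypsinogen, read 14.0, 5661, 13.6 and 14.0 in the same order. All 10 such genes looked up, a list chosen after these values were seen, were high on that array alone of the 4. The part of this material in other results on that array was not tested, so several of the results are also given without it.

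Promoter sequences of 4 of the genes named below are shown to place these genes and to let their sequence be set beside their values. Each runs from 250 bases before to 50 bases after the annotated start (RefSeq, GRCm38.p6). Capitals mark AGGTCA on either strand, the half-site that nuclear receptors bind, and TTCNNNGAA, the motif of STAT5, which carries the growth hormone signal in liver. The windows lie at chr3:98645485-98645784 on the minus strand (Hsd3b5), chr19:40187237-40187536 on the minus strand (Cyp2c70), chr6:141946913-141947212 on the minus strand (Slco1a1) and chr17:24877594-24877893 on the plus strand (Igfals, the first of 3 annotated windows).
Hsd3b5: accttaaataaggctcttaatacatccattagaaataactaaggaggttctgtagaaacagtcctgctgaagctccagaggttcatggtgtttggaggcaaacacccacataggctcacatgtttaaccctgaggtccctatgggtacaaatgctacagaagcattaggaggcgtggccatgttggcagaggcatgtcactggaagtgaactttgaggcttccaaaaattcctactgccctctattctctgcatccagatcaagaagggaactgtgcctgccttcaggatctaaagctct
Cyp2c70: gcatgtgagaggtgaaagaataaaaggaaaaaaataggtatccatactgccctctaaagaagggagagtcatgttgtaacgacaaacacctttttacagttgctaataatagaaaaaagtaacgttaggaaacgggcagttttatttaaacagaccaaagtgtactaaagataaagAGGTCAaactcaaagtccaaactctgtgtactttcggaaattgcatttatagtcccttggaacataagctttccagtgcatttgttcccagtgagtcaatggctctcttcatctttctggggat
Slco1a1: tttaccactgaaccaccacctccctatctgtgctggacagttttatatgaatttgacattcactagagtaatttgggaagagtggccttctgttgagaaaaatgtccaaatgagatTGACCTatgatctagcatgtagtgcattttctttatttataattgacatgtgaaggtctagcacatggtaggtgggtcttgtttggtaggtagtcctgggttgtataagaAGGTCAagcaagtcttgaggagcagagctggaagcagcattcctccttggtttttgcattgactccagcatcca
Igfals: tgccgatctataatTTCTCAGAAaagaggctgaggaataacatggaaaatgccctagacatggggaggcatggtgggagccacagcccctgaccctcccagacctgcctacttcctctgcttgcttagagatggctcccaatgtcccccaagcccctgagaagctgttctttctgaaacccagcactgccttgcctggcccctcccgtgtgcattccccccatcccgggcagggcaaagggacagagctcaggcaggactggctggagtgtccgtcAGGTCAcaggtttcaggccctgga
AGGTCA occurred 0 times in the Hsd3b5 window, 1 time in those of Cyp2c70 and Igfals, and 2 times in that of Slco1a1. TTCNNNGAA occurred 1 time, in the Igfals window. The windows of Abcg5 and Abcg8, LXR targets described below, were also searched and are not printed. They share 209 bases, and each held 0 matches of either motif. Over all 32851 windows of the same length, 16.3% held AGGTCA and 8.3% held TTCNNNGAA, so a match in a window is common and describes the letters only.

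Hsd3b5, a male-specific liver enzyme of steroid hormone metabolism, had higher values in the LXRα livers than in the GFP livers. It was the only probe set of 15838 tested with an adjusted p under 0.05 (limma, Benjamini-Hochberg), 0.00631% of them. At an unadjusted p under 0.05 there were 816 probe sets (5.15%). With 2 livers a group the test had little reach, so values are also described by separation: a gene counted as separated when both LXRα vehicle arrays lay on 1 side of both GFP vehicle arrays and the group means differed by at least 1 on the log2 scale. By that rule 60 of 9359 genes were higher with LXRα (0.641%) and 183 were lower (1.96%). The lower ones include Ctrb1 and Cela3b, digestive enzyme genes high on GFP vehicle replicate 2 alone. The higher ones include Moxd1, high on LXRα vehicle replicate 2 alone. Over all genes the median log2 difference was 0.05, with 5606 genes higher by mean and 3753 lower. Apart from Hsd3b5, no gene named below passed the adjusted test, and "higher" and "lower" give the direction of the values.

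**Figure D1:**
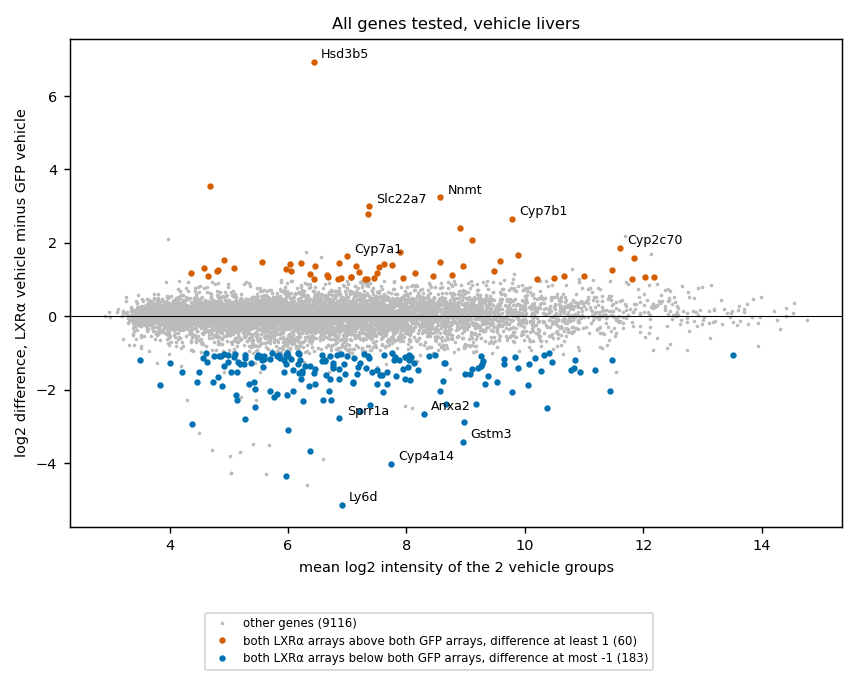
Each point is 1 of the 9359 genes tested, with the mean log2 intensity of the vehicle groups on the x axis and the log2 difference, LXRα vehicle minus GFP vehicle, on the y axis. Orange and blue mark the 60 and 183 separated genes; Hsd3b5 stands at 6.94 and Ly6d at -5.12.

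Male-biased liver genes formed the group with the highest median difference of the 41 lists described. Some genes belong to more than 1 list, such as C8b (male-biased and complement) and Ly6d (female-biased and injury), so list counts overlap. Hsd3b5 had intensities of 8.10 and 6.82 in the GFP vehicle livers and 846 and 1079 in the LXRα vehicle livers. The GFP values sat at or next to the floor of 7.50 below which intensities were not distinguished. The difference was 6.94 on the log2 scale (SE 0.32, adjusted p = 0.00195, limma). Its size depends on how values near the floor are treated: with an offset of 16 in place of the floor it was 5.37. Without GFP vehicle replicate 2 it was 6.88 (adjusted p = 0.0306). In a fit of the 4 vehicle arrays alone the size was the same and the adjusted p was 0.0899, so the call rests on the spread shared with the T0901317 arrays.

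Of the 22 male-biased genes tested (31 listed), 21 were higher with LXRα by mean and 11 were separated upward, against 0.641% of all genes. The median log2 difference was 1.03, and each LXRα liver showed it: 1.00 for replicate 1 and 1.16 for replicate 2, each set against the GFP mean. Without GFP vehicle replicate 2, which was the lower of the controls for most of these genes, the median was 0.70. Cyp2c70, the enzyme that makes muricholic acids in mice, read 1701 and 1584 with GFP and 6320 and 5634 with LXRα. This was a log2 difference of 1.86 (SE 0.24, adjusted p = 0.299), with replicates close together in both groups. C8b, a chain of the membrane attack complex, read 209 and 210 with GFP and 741 and 1662 with LXRα (2.41, SE 0.48, adjusted p = 0.580). Cyp7b1, the oxysterol 7α-hydroxylase, read 539 and 230 against 1267 and 3895 (2.66, SE 0.68, adjusted p = 0.685), and its other probe set differed by 3.17. Lifr, the receptor of leukemia inhibitory factor, read 198 and 149 against 341 and 371 on its brightest probe set (1.05, SE 0.26, adjusted p = 0.685). Its other probe set read 96.9 and 121 against 518 and 619 (2.39, SE 0.25, adjusted p = 0.105). Slco1a1, an organic anion transporter of male liver, read 106 and 36.3 against 578 and 321 (2.79, SE 1.55, adjusted p = 0.963). Nudt7, a peroxisomal coenzyme A hydrolase, read 2237 and 2027 against 6400 and 6346 (1.58, SE 0.50). Susd4, Egfr, Ugt2b38 and C6 completed the 11, with differences from 1.09 to 1.53. The groups overlapped for Cyp4a12a, at 1044 and 379 with GFP and 1616 and 993 with LXRα, and for Elovl3.

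Genes of growth hormone signalling, the pathway that sets sex bias in rodent liver, leaned the same way with smaller differences. Of 19 tested, 15 were higher by mean, 10 had both LXRα values above both GFP values (30.5% of all genes did), and the median difference was 0.38. Igfals, the growth-hormone-driven subunit that holds IGF1 in serum, read 81.0 and 61.5 against 154 and 243 (1.46, SE 0.36, adjusted p = 0.647) and was the only separated member. Onecut1, a liver transcription factor, read 18.6 and 18.9 against 29.7 and 36.5. Hnf4a, a master regulator of hepatocyte genes, read 819 and 840 against 1115 and 1588 (0.68, SE 0.27). Ghr, the receptor itself, read 2173 and 1998 against 2722 and 3427 (0.55, SE 0.32). Stat5b, the signal carrier, read 102 and 73.0 against 68.9 and 82.4, so its groups overlapped. Igfbp3 went the other way, at 202 and 168 against 99.9 and 101 (-0.88, SE 0.38). It had the lowest difference of the list and was the only member with both LXRα values below both GFP values (13.3% of all genes).

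Female-biased genes did not move as 1 block. Of 19 tested, 8 were higher and 11 lower, 5 were separated downward (1.96% of all genes were) and the median was -0.29. This median turned to 0.03 without GFP vehicle replicate 2 and to 0.07 without LXRα vehicle replicate 2. The 5 were Ly6d, Cyp4a14, Cd36, Abcd2 and Lpl. Ly6d, a lymphocyte and epithelial surface antigen gene, read 1051 and 476 with GFP and 18.2 and 22.6 with LXRα. Its difference of -5.12 (SE 0.53, adjusted p = 0.105) was the lowest of all genes. Aox3, an aldehyde oxidase, went the other way, at 828 and 606 against 1314 and 1205 (0.83, SE 0.32).

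**Figure D2:**
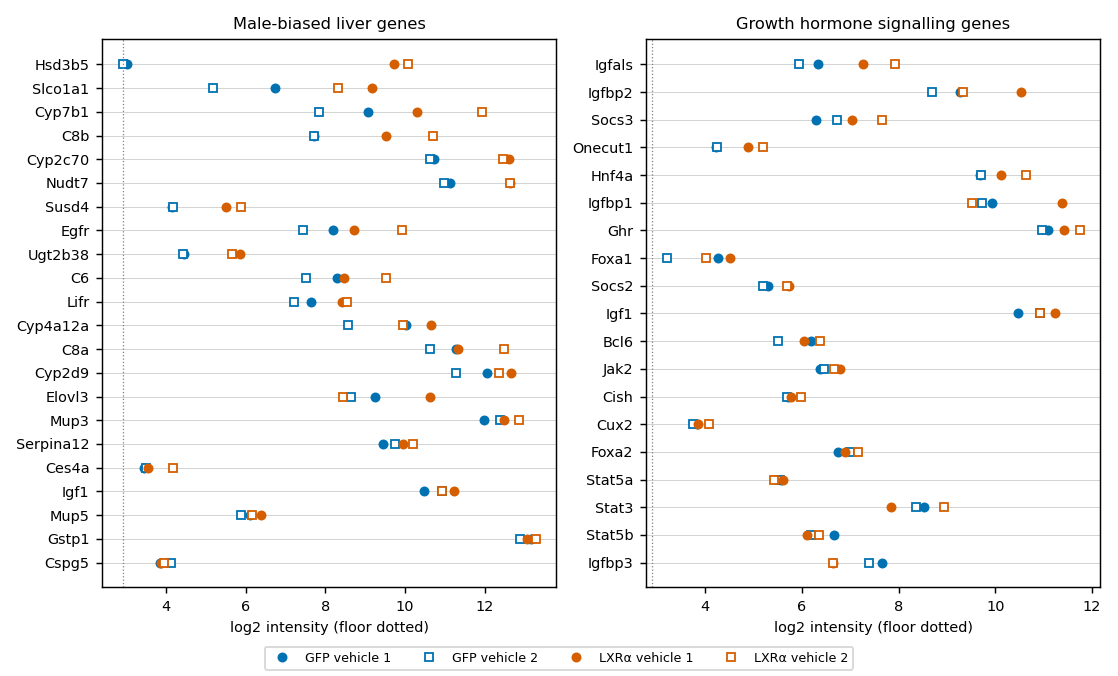
Log2 intensity (x axis) of each tested male-biased gene (left) and growth hormone signalling gene (right) on the 4 vehicle arrays; circles are replicate 1, squares replicate 2, blue GFP and orange LXRα. In 17 of 22 male-biased genes and 10 of 19 signalling genes both orange points lie to the right of both blue points, against 30.5% of all genes.

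LXR targets had values on both sides. All 16 listed genes were tested: 8 were higher and 8 lower, with a median of -0.05. Of them 4 were separated upward (0.641% of all genes were) and 2 downward (1.96%). The median moved with single livers: it was -0.28 without LXRα vehicle replicate 1 and 0.15 without LXRα vehicle replicate 2. It was 0.01 without GFP vehicle replicate 1 and -0.10 without GFP vehicle replicate 2. The genes that were separated also changed with the array left out. The 4 upward were Cyp7a1, Abcg8, Abcg5 and Srebf1. Cyp7a1, whose enzyme opens the classic route from cholesterol to bile acids, read 77.8 and 68.2 against 220 and 232 (1.63, SE 0.30, adjusted p = 0.580). Abcg8 and Abcg5 encode the subunits of the transporter that exports sterols into bile. Abcg8 read 126 and 107 against 355 and 247 (1.35, SE 0.28, adjusted p = 0.580). Abcg5 read 484 and 448 against 1509 and 790 (1.23, SE 0.35, adjusted p = 0.774). Srebf1 read 1575 and 644 against 2157 and 1989 (1.04, SE 0.49, adjusted p = 0.963). The downward ones were Pltp and Lpl. Pltp, which moves phospholipid between lipoproteins, read 3055 and 2888 against 1505 and 821 (-1.42, SE 0.31, adjusted p = 0.597). Lpl, which hydrolyses their triglyceride, read 1640 and 1440 against 1161 and 288 (-1.41, SE 0.58, adjusted p = 0.953). Macrophages make both as well, and the macrophage markers described below were also lower on these arrays; the part of those cells was not tested.

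The other LXR targets stayed closer together. Abca1, the cholesterol efflux pump, read 937 and 747 against 1040 and 752 (0.08, SE 0.26), and its relative Abcg1 read 349 and 262 against 210 and 228 (-0.46, SE 0.23). Scd1, the stearoyl-CoA desaturase, read 16941 and 16526 against 16490 and 13283 (-0.18, SE 0.17). Apoe differed by 0.02 (SE 0.18), Mylip, which degrades lipoprotein receptors, by -0.11 (SE 0.52), Lpcat3 by 0.15 (SE 0.35), Rnf145 by -0.22 (SE 0.24), Mlxipl by 0.38 (SE 0.32), Smpdl3a by -0.77 (SE 0.38) and Apoc2 by -0.83 (SE 0.52). The signs of Abca1, Lpcat3, Apoe and Mylip turned when single vehicle arrays were left out, and that of Apoe also under quantile scaling and median centring. Of the other receptors, Nr1h4 differed by -0.05 (SE 0.32), Nr1i2 by 0.07 (SE 0.19) and Nr1i3 by -0.36 (SE 0.33).

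In bile acid synthesis 13 of 19 genes were higher by mean, 10 had both LXRα values above both GFP values (30.5% of all genes), none had both below (13.3% of all genes), and the median was 0.22. It was 0.20 without LXRα vehicle replicate 1 and 0.39 without LXRα vehicle replicate 2. Leaving out GFP vehicle replicate 1 gave 0.29, and leaving out GFP vehicle replicate 2 gave 0.26. Besides Cyp2c70, Cyp7a1 and Cyp7b1, which were separated, Slc27a5, the bile acid CoA ligase, read 3918 and 4363 against 6045 and 6261 (0.57, SE 0.19). Hsd3b7, which acts on the sterol ring after Cyp7a1, read 1600 and 1428 against 2361 and 2267 (0.61, SE 0.23). Slc22a7, an organic anion transporter of the hepatocyte, read 64.3 and 53.2 against 279 and 784 (3.00, SE 0.61, adjusted p = 0.580). Slc10a1, which takes up bile acids, read 2254 and 2806 against 5916 and 3635 (0.88, SE 0.36). Abcc3, an export pump on the blood side, was lower, at 1119 and 836 against 514 and 261 (-1.40, SE 0.46). Of the 16 transporters tested, 9 were higher and 7 lower.

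Genes of tissue injury and repair were lower with LXRα as a group. Of 26 tested, 22 were lower by mean, 15 were separated downward (against 1.96% of all genes), and the median was -1.13. The LXRα livers gave -1.19 and -1.15, and without GFP vehicle replicate 2 the median was -1.42. Sprr1a, a gene of cornified epithelium induced by stress, read 375 and 250 against 34.5 and 57.9 (-2.78, SE 0.44, adjusted p = 0.475). Anxa2, a membrane-binding annexin, read 1136 and 549 against 204 and 77.2 (-2.65, SE 0.55, adjusted p = 0.580). Tmsb10, which binds actin monomers, read 1751 and 1085 against 556 and 285 (-1.79, SE 0.38, adjusted p = 0.580). Mmp12, a macrophage elastase, read 197 and 69.2 against 19.2 and 33.6 (-2.20, SE 0.61, adjusted p = 0.772). The keratin Krt18, a filament protein of hepatocytes, read 5803 and 3188 against 1600 and 2231 (-1.19, SE 0.45). Tnfrsf12a, the receptor of the cytokine TWEAK, read 205 and 135 against 58.6 and 36.5 (-1.85, SE 0.70). The neutrophil gene S100a9 overlapped between groups, at 48.9 and 144 against 33.2 and 69.2, and Lcn2 was 535 and 993 against 532 and 1948.

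Macrophage and Kupffer cell markers were lower in 28 of 29 genes tested, with a median of -1.21 and 17 separated downward (against 1.96% of all genes). Cd14, a lipopolysaccharide co-receptor, read 93.0 and 112 against 26.5 and 12.99 (-2.46, SE 0.55, adjusted p = 0.620). C1qc, a complement chain that macrophages secrete, read 979 and 889 against 433 and 229 (-1.57, SE 0.38, adjusted p = 0.647). Fcgr1, an Fc receptor, read 84.9 and 70.0 against 34.1 and 7.48 (-2.27, SE 0.64, adjusted p = 0.774). Cd68, a lysosomal marker, read 168 and 213 against 64.3 and 6.85 (-3.10, SE 0.91, adjusted p = 0.826). The size depended on the liver. The median against the GFP mean was -0.63 in LXRα vehicle replicate 1 and -1.78 in replicate 2. Without GFP vehicle replicate 2 the median was -1.05. Summed over the 29 markers, intensity was 20680 and 21423 with GFP and 14312 and 5843 with LXRα, and 3 markers were at the floor in the last array. Clec4f, specific to Kupffer cells, read 457 and 431 against 381 and 279 (-0.44, SE 0.32). In whole liver, fewer cells of a type and less RNA per cell cannot be told apart.

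In antigen presentation 13 of 16 genes were lower and 6 separated downward (1.96% of all genes were). The median of -0.58 was only -0.32 without LXRα vehicle replicate 2. The class II gene H2-Aa read 257 and 176 against 118 and 16.2 (-2.29, SE 0.83), and Cd74, its chaperone, read 1292 and 599 against 455 and 193 (-1.57, SE 0.50, adjusted p = 0.862). Of 24 chemokine, cytokine and adhesion genes 15 were lower and 9 higher, with 3 separated downward (1.96% of all genes) and 1 upward (0.641%). Their median of -0.26 was -0.0024 without GFP vehicle replicate 1. The upward one was Cxcl1, a chemokine for neutrophils, at 90.0 and 135 against 140 and 361 (1.03, SE 0.56). On the lower side, Ccl6 read 283 and 532 against 168 and 31.0 (-2.43, SE 0.74), and Cxcl16 read 102 and 81.0 against 48.4 and 44.6 (-0.97, SE 0.20, adjusted p = 0.580). Lymphocyte markers had a median of 0.03 over 13 genes; that sign turned under quantile scaling and median centring. The neutrophil median of -0.35 over 6 genes turned to 0.05 without GFP vehicle replicate 2. The interferon-stimulated genes had a median of -0.40, which turned to 0.11 without GFP vehicle replicate 1 and to 0.07 without LXRα vehicle replicate 2.

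**Figure D3:**
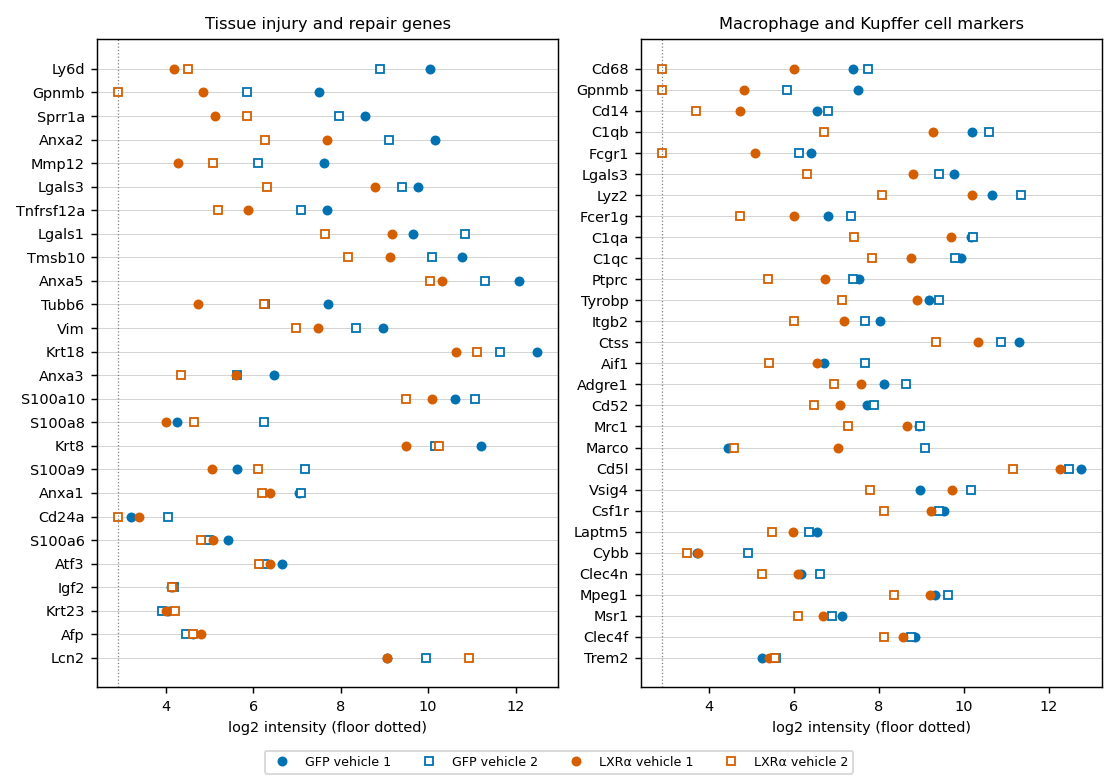
Log2 intensity (x axis) of tissue injury and repair genes (left) and macrophage markers (right) on the 4 vehicle arrays, with circles for replicate 1, squares for replicate 2, blue for GFP and orange for LXRα. Both orange points lie to the left of both blue points in 16 of 26 injury genes and 25 of 29 macrophage markers, against 13.3% of all genes, and in the right panel LXRα replicate 2 is mostly the lowest.

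Matrix genes were lower in 29 of 32 stellate cell and matrix markers, with a median of -0.50 and 6 separated downward (1.96% of all genes were). Without GFP vehicle replicate 1 the median was -0.34, and without GFP vehicle replicate 2 it was -0.66. Col3a1, a fibrillar collagen, read 1421 and 600 against 215 and 146 (-2.38, SE 0.56, adjusted p = 0.647). Its other, dim probe set differed by 0.04. Lum, a collagen-binding proteoglycan, read 31.5 and 30.6 against 13.7 and 8.71 (-1.51, SE 0.32, adjusted p = 0.580). Dcn, a related proteoglycan, read 849 and 708 against 424 and 374 (-0.96, SE 0.30). The summed intensity of the list overlapped between groups, at 10089 and 7736 with GFP and 7724 and 8997 with LXRα. Fn1, a matrix protein that hepatocytes also secrete, was higher (2076 and 1656 against 2388 and 4192). Endothelial markers had a median of -0.20, with 21 of 27 lower; it was -0.01 in LXRα replicate 1 and -0.48 in replicate 2. Plvap, a protein of endothelial pores, read 335 and 201 against 96.3 and 100.2 (-1.40, SE 0.33, adjusted p = 0.647). Hepatocyte markers had a median of 0.15, and their summed intensity was 148134 and 153182 with GFP and 169456 and 167654 with LXRα.

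NRF2 response genes and glutathione transferases were mostly lower, unevenly between the LXRα livers. In the NRF2 response 17 of 21 genes were lower, 6 separated downward (1.96% of all genes) and 1 upward (0.641%), with a median of -0.65. Without GFP vehicle replicate 1 the median was -0.44, without GFP vehicle replicate 2 it was -0.76, and without LXRα vehicle replicate 2 it was -0.46. Srxn1, which repairs peroxiredoxins, read 570 and 278 against 111 and 82.3 (-2.06, SE 0.46, adjusted p = 0.620), and Cbr3, a carbonyl reductase, read 107 and 30.6 against 7.29 and 7.26, both under the floor. Sod1, the cytosolic superoxide dismutase, was higher, at 2461 and 2618 against 5353 and 4879 (1.01, SE 0.19, adjusted p = 0.580). Nfe2l2, which encodes NRF2, read 627 and 423 against 367 and 167 (-1.06, SE 0.39). Of 20 glutathione transferases 18 were lower and 6 separated downward (1.96% of all genes were), with a median of -0.89. That median was -0.01 in LXRα replicate 1 and -1.77 in replicate 2. Without GFP vehicle replicate 2 the median was -0.39. Gstm3 read 2672 and 984 against 263 and 87.2 (-3.42, SE 0.74, adjusted p = 0.580), and all 4 Gstm1 probe sets were lower, with differences from -2.02 to -2.48. Probe sets of these closely related genes can cross-hybridise. Genes of drug-metabolising P450s and conjugation went both ways: 18 of 27 were higher and 9 lower, with a median of 0.16. Without LXRα vehicle replicate 1 that median was -0.04.

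In fatty acid metabolism most values were lower, again mainly in LXRα vehicle replicate 2. Of 20 fatty acid synthesis genes 16 were lower, with a median of -0.52 that turned to 0.04 without that liver. Fasn, the fatty acid synthase gene, read 1643 and 659 against 1074 and 480 (-0.54, SE 0.56), so its groups overlapped, and Scd2, a desaturase, read 212 and 141 against 95.1 and 35.0 (-1.58, SE 0.58). For fatty acid oxidation 19 of 26 were lower, with a median of -0.24 that turned to 0.04 without the same liver. Cyp4a14, a PPARα target that hydroxylates fatty acids, read 559 and 1304 against 128 and 21.9 (-4.01, SE 1.13, adjusted p = 0.774). Cd36, a fatty acid transporter, read 2061 and 1575 against 944 and 200.4 (-2.05, SE 0.75), and both its other probe sets were lower. The fatty acid binding proteins went both ways. Fabp4, of adipocytes and macrophages, read 468 and 505 against 214 and 99.0 (-1.74, SE 0.49, adjusted p = 0.772). Fabp5 read 92.5 and 181 against 402 and 476 (1.76, SE 0.58, adjusted p = 0.872). Apob, the core protein of very low density lipoprotein, read 2506 and 1720 against 691 and 792 (-1.49, SE 0.66).

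Proteins that hepatocytes secrete had mostly higher values. In complement and coagulation 37 of 43 genes were higher, with a median of 0.42, 3 separated upward (0.641% of all genes) and 4 downward (1.96%). Without LXRα vehicle replicate 2 the median was 0.27. The upward ones were C8b, C6 and F7, the clotting factor, at 294 and 292 against 475 and 872 (1.14, SE 0.31, adjusted p = 0.767); the downward ones were C1qa, C1qb, C1qc and Cfp, which macrophages and other myeloid cells make. Acute phase genes were higher in 23 of 26, with a median of 0.50. That value came from LXRα replicate 2 (0.93), since replicate 1 gave -0.01; Saa2 read 760 and 3156 against 2575 and 19303. For ER stress and chaperones 26 of 33 were higher, with a median of 0.31. It was 0.11 in LXRα replicate 1, 0.44 in replicate 2, and 0.16 without GFP vehicle replicate 2. Xbp1, a transcription factor of the unfolded protein response, read 1549 and 1281 against 2262 and 3156 (0.92, SE 0.26, adjusted p = 0.772).

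Nitrogen metabolism pointed up in both LXRα livers. Of 26 urea cycle and amino acid genes 23 were higher, 18 had both LXRα values above both GFP values (30.5% of all genes), none had both below (13.3%), and the median was 0.39 (0.40 and 0.30 by liver). Cps1, the first enzyme of the urea cycle, read 3548 and 3509 against 7293 and 5830 (0.89, SE 0.19, adjusted p = 0.580). Hal, which degrades histidine, read 370 and 261 against 605 and 1063 (1.37, SE 0.35, adjusted p = 0.685). In the methionine cycle 13 of 16 were higher, with a median of 0.29. Nnmt, which methylates nicotinamide, read 52.4 and 293 against 793 and 1725 (3.24, SE 0.89, adjusted p = 0.767), and Ahcy, the hydrolase of S-adenosylhomocysteine, read 3785 and 4451 against 7024 and 6486 (0.72, SE 0.22, adjusted p = 0.842). Pfkfb3, which makes the glycolytic activator fructose 2,6-bisphosphate, read 31.4 and 25.8 against 66.8 and 94.0 (1.48, SE 0.38, adjusted p = 0.685). In the cell cycle list 17 of 22 were lower, with a median of -0.29 (-0.15 when GFP vehicle replicate 1 was left out, -0.16 when LXRα vehicle replicate 2 was). Mcm3, of the replicative helicase, read 48.0 and 39.2 against 21.3 and 21.3 (-1.03, SE 0.19, adjusted p = 0.580).

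Several groups had medians near that of all genes. The respiratory chain had a median of 0.05 over 42 genes and cytosolic ribosomal proteins -0.06 over 38. Sterol synthesis had 0.04 over 19 genes, erythroid markers 0.01 over 6, and periportal genes 0.07 over 15. No respiratory chain gene was separated. Leaving out single arrays moved 3 of these medians across 0: from -0.07 to 0.26 for the respiratory chain, from -0.30 to 0.12 for ribosomal proteins, and from -0.15 to 0.25 for sterol synthesis.

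**Figure D4:**
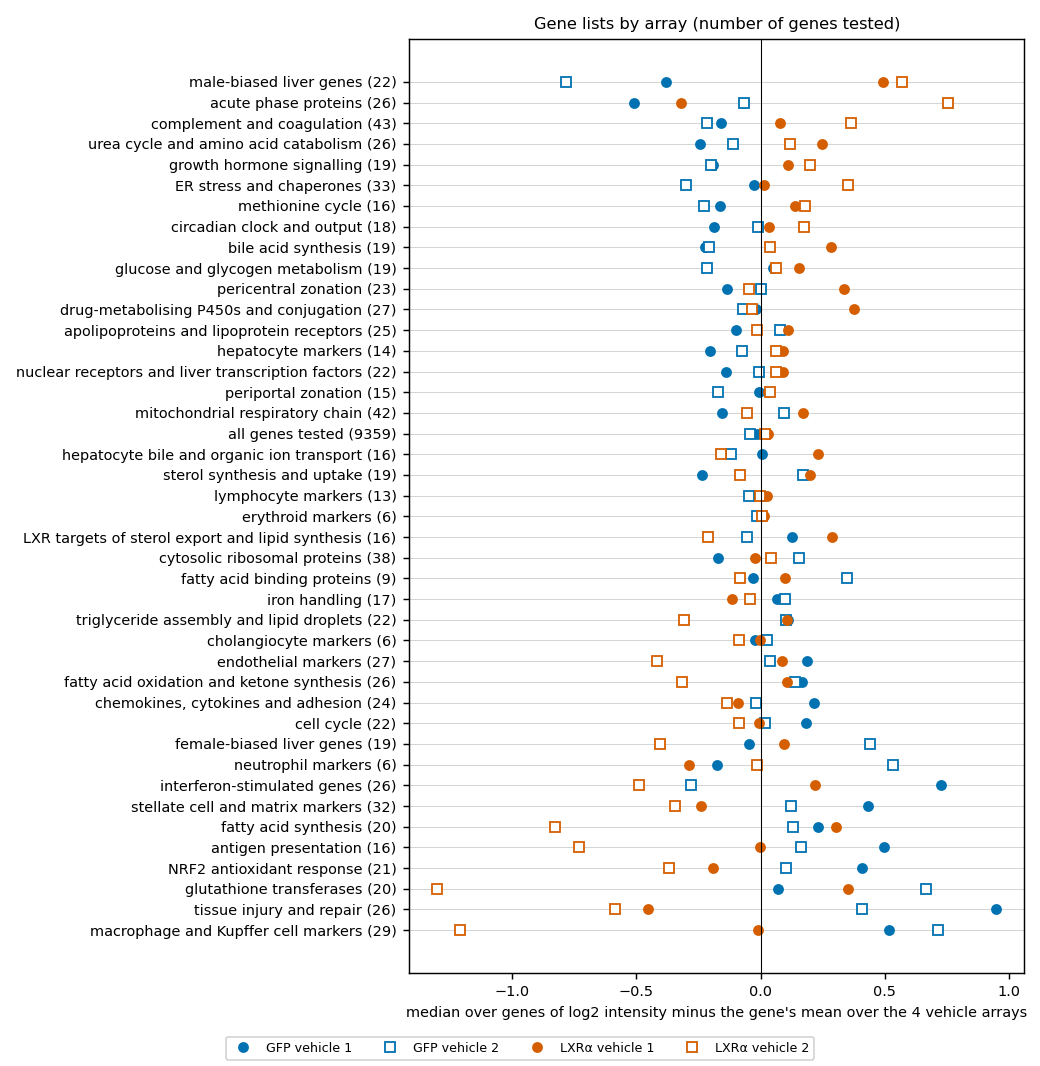
For each list (y axis, number of genes tested in brackets) the median over its genes of log2 intensity minus the gene's mean over the 4 vehicle arrays (x axis), with 1 point per array; circles are replicate 1, squares replicate 2, blue GFP and orange LXRα. Male-biased genes lie to the right in both LXRα livers, and the injury list is low in both LXRα livers, while macrophage markers and glutathione transferases are lowest in LXRα replicate 2.

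Set beside these values, the same transgene comparison in T0901317 livers used none of the same arrays. Hsd3b5 read 8.40 and 6.59 with GFP and 5.75 and 15.0 with LXRα there. The transgene difference was larger in vehicle than in T0901317 livers by 6.52 (SE 0.45, adjusted p = 0.0314, limma interaction), the only probe set called (0.00631%). That call was lost under quantile scaling, a lower floor, no filter, the replicate block, and without any 1 of 5 arrays. The 60 genes separated upward in vehicle livers had a median of -0.36 in T0901317 livers, where 45 were lower and 15 higher. The 183 separated downward had a median of 0.19, with 126 higher, while 55.9% of all genes were higher. Male-biased genes had a median of -0.36 (15 of 22 lower) and injury genes 0.45 (20 of 26 higher). Slc22a7 differed by -2.38 there (SE 0.61) and Nnmt by -2.14 (SE 0.89). Set against the GFP vehicle mean, the 60 genes had medians of 0.80 and 1.10 in GFP T0901317 livers. In LXRα T0901317 livers these were 0.48 and 0.88. For the 183 genes the medians were -0.37 and -0.37 with GFP, and 0.03 and -0.38 with LXRα. Both sets were chosen by their vehicle values, GFP included, which bears on these levels. These values stand beside higher 3'/5' ratios on the T0901317 arrays. The β-actin ratio was above those of all vehicle arrays on 3 of the 4, and the pyruvate carboxylase ratio on all 4, at 26.4 to 60.6. The bacterial control dap also had higher ratios there, at 2.86 to 21.8 against 1.67 to 2.20 on the vehicle arrays. The part of RNA quality or sample preparation in the T0901317 values was not tested.

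**Figure D5:**
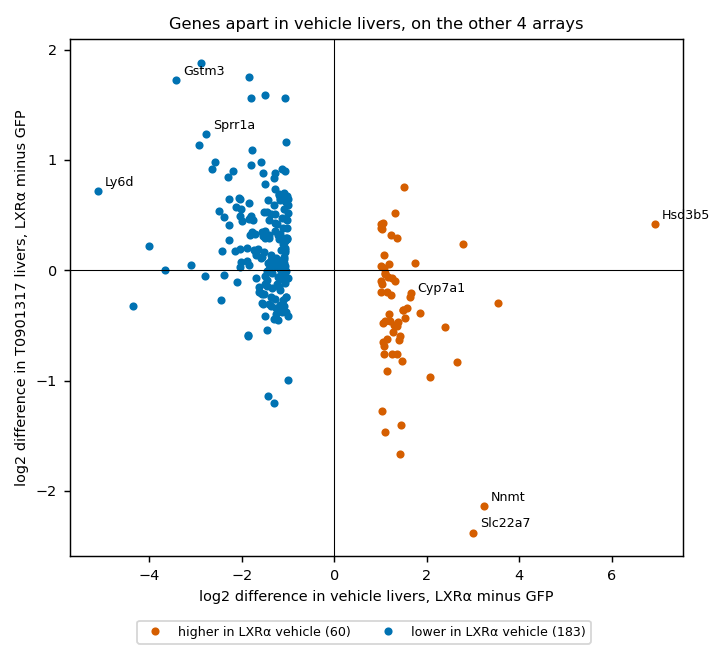
Each point is 1 of the 243 genes separated in vehicle livers, with its log2 difference, LXRα minus GFP, in vehicle livers on the x axis and in T0901317 livers on the y axis. Of the orange points 45 of 60 lie below 0 on the y axis, and of the blue points 126 of 183 lie above it.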

How the data were processed

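RNA of 8 livers was measured on Affymetrix mouse arrays, 1 mouse each, per the labels. The authors deposited 1 linear intensity per probe set and array; how probes were summarised and scaled is not given in the sources used here. Of 22690 probe sets, 64 were controls and left out, and 20380 had 1 gene symbol in the platform annotation. Values below 7.50, the 20th percentile, were set to it before taking log2, and 15838 probe sets above the 30th percentile of mean log2 value were tested. limma 3.58.1 (R 4.3.3) fitted 4 group means on all 8 arrays with an intensity trend (4 residual degrees of freedom), with Benjamini-Hochberg adjustment across every probe set tested. SE is limma's, with n = 2 arrays a group; precision is limited by the number of arrays, and p-values measure the spread between these arrays. A gene was its brightest tested probe set. The steps were tested on simulated data. The comparison, the 41 gene lists (1033 genes, 794 tested) and the tests were chosen with earlier results of these data known. Genes named were drawn from those called and the 12 largest differences each way at an unadjusted p under 0.01 without overlap. Further sources were up to 4 members per list by p, the receptors and all LXR targets. These sets held 166 genes, and not all of them are named above. Other list members are named for their role or because they were separated, with values seen. Alternatives were other scalings, floors, filters, variance models, a replicate block, the vehicle arrays alone and each array left out. Replicate numbers were not taken to pair the livers in the main fit. After removing group means, same-numbered arrays correlated at -0.138 between the vehicle groups and at 0.247 between the T0901317 groups. With 2 arrays a group these values cannot settle whether same-numbered arrays shared a batch.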

Additional observations from a re-analysis of the deposited data

Results flagged for a closer look

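The transgene difference of Hsd3b5 was larger in vehicle than in T0901317 livers by 6.52 on the log2 scale (SE 0.45, adjusted p = 0.0314, limma interaction). It differed by 6.94 in vehicle livers and by 0.42 in T0901317 livers, where all 4 intensities lay between 5.75 and 15.0. The LXRα vehicle livers read 846 and 1079. The β-actin 3'/5' ratio was 2.75 in one of those LXRα T0901317 livers and 36.3 in the other, the pyruvate carboxylase ratio was 26.4 and 51.9, and the part of RNA quality was not tested.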

How the results depend on the processing

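The number of probe sets called was 1 under both other scalings, both other floors, the stricter filter, both other variance models, the replicate block (Hsd3b5 adjusted p = 0.00727) and an adjusted p under 0.10. It was 11 with no filter, 9 of them higher; Hsd3b5 was among them, and several of the others were dim probe sets with differences under 0.1. It was 0 with the vehicle arrays alone (1206 at an unadjusted p under 0.05), 0 with those arrays and the replicate block (948), and 0 with a crossed block (1221), an alternative chosen after seeing the data; Hsd3b5 then had adjusted p-values of 0.0899, 0.726 and 0.321. With single arrays left out it ranged from 1 to 32. The 32 came without GFP vehicle replicate 1, when 31 probe sets were lower, among them Cela3b, Cel, Ctrb1 and Cpb1, the digestive enzymes of the remaining control. Sirpa was called besides Hsd3b5 without GFP vehicle replicate 2, and Moxd1 and Tmsb10 without LXRα vehicle replicate 1. The interaction count of 1 became 0 under quantile scaling, the floor at the 5th percentile, no filter and the replicate block, and ranged from 0 to 1 with arrays left out. Genes separated upward ranged from 59 to 137 and downward from 115 to 433 with arrays left out, where a lone array makes separation easier by construction; other settings gave 41 to 66 and 127 to 203.

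Of the 166 genes in the sets that named genes were drawn from, these changed sign. Apoe was -0.0875 under quantile scaling and -0.0167 under median centring, and Klf1 -0.00464 under median centring. With arrays left out, Nr1i2 ranged from -0.00565 to 0.152, S100a8 from -1.92 to 0.0719, Abca1 from -0.153 to 0.315, Lpcat3 from -0.225 to 0.519, Cyp3a11 from -3.04 to 0.0136, Nr1h4 from -0.174 to 0.0741, Mylip from -0.825 to 0.599 and Apoe from -0.101 to 0.134. The cause was not tested. Over all lists and settings, 547 medians stayed within the spread between replicates and 68 moved by more. With 2 livers a group, the number of arrays limits what can be called.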

Other observations

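Immediate-early and growth-responsive transcription factors were looked at after their values had been seen. Of 22 such genes, 16 were lower with LXRα and 8 were separated downward (1.96% of all genes were), with a median of -0.31. Klf10, induced by TGFβ, read 83.4 and 64.1 with GFP and 22.0 and 12.5 with LXRα (-2.14, SE 0.44). Egr1, a growth factor response gene, read 61.2 and 95.4 against 26.1 and 17.6 (-1.83, SE 0.38). Id3, a target of bone morphogenetic proteins, read 452 and 258 against 117 and 77.6 (-1.84, SE 0.49), and Id1 differed by -1.80. Fos, Junb and Zfp36 differed by 0.07, 0.23 and 0.11, so the classic early genes were not uniformly lower. None passed the adjusted test (limma).

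Klb, the co-receptor of FGF21 and FGF15, read 48.5 and 38.9 against 106 and 97.0 (1.22, SE 0.24). Ang, an RNase that hepatocytes secrete, read 147 and 492 against 678 and 1897 (2.08, SE 0.79). Nid1, a basement membrane protein, read 169 and 103 against 36.5 and 24.9 (-2.13, SE 0.33). Moxd1, a monooxygenase-like gene, read 1008 in LXRα vehicle replicate 2 and between 6.66 and 11.4 on the other 7 arrays. These genes were also chosen after their values had been seen.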
